A study of Mus musculus with 9 samples.

Results

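Kinesins are motor proteins that walk along microtubules and use ATP to move cargo, chromosomes or the microtubules themselves. Some members are made mainly in dividing cells, where they build the spindle, move chromosomes and finish cell division. Others work throughout the cell cycle and carry vesicles, endosomes and mitochondria, and in T cells they also carry signalling proteins and organelles towards the contact with another cell. Here the family was followed in mouse thymocytes with an active form of β-catenin, the transcriptional arm of the Wnt pathway.

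Kinesins were taken as every gene whose symbol is Kif followed by a digit, with the probe set of highest mean log2 signal where the array held several. The rule found 37 of the 18193 genes with a probe set of their own, on 15 chromosomes. By known role, 12 were placed among the mitotic kinesins, 13 among the transport kinesins and 12 in a remaining class of microtubule regulators, ciliary kinesins and members of less settled role.

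The arrays measured RNA from C57Bl/6 mice that were homozygous for R26NC, an allele at the Rosa26 locus that gives active β-catenin once Cre has acted, with 1 mouse per array. The control group was 2 CD4Cre- mice aged 6 weeks, so Cre was absent from every control and present in every other mouse. The pre-transformed group was 3 R26NC/NC CD4Cre+ mice (R26-βcat) aged 6 weeks, whose Cre, under Cd4 control, acts from the double-positive (DP) stage at which a thymocyte carries CD4 and CD8. In both groups DP cells were sorted to a purity above 98% and labelled from 0.1 µg of RNA with an amplification kit. The tumour group was 4 thymic tumours of R26NC/NC CD4Cre+ mice aged 28, 26, 23 and 21 weeks (tumours 1 to 4), used as total cells of which at least 95% were CD4+CD8+ and labelled from 2.5 µg by the standard Affymetrix protocol. Tumour, age, sorting and labelling therefore cannot be told apart in any comparison with tumours, and p-values measure the spread between these mice.

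Values are MAS5 signals, the linear brightness of a probe set after each array was scaled to a trimmed mean of 100, and group values are geometric means. A signal was called dim where the group mean lay under that group's mean 65th percentile, which was 40.8 in controls, 43.7 in pre-transformed cells and 36.2 in tumours. Of the 37 kinesins, 27 passed the filter on low signals and were tested, and 21 were bright in at least 1 group: 9 mitotic, 8 transport and 4 of the remaining class. The 10 untested kinesins did not exceed a signal of 18.5 on any array. They were Kif2b and Kif15 among the mitotic members, Kif1a among the transport members, and Kif6, Kif12, Kif21a, Kif26a, Kif26b, Kif27 and Kif28. Tested but dim in every group were Kif14, Kif5a, Kif5c, Kif13a, Kif17 and Kif9. Kif5a, Kif5c, Kif1a and Kif17 are best known from neurons. A member passes the filter through its brighter group, so counts over the tested members describe those members alone.

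The labels were checked against 6 marker lists. All 10 measured DP thymocyte markers were bright in controls and pre-transformed cells, with summed signals of 27377 to 29006 and 29083 to 31148. In tumours the sum was 11809 to 16253. By limma at an adjusted p under 0.05, 9 of the 10 were called lower than in pre-transformed cells, Cd8a, Rag1 and Rag2 among them. Of all genes, 31.1% were called lower there. Cd4 went the other way, with means of 722 in controls, 996 in pre-transformed cells and 1234 in tumours. It was called higher in tumours than in controls and was not called against pre-transformed cells. Summed myeloid signals (10 markers, 9 of them dim in both sorted groups) were 147 to 200.2 in controls, 166 to 308 in pre-transformed cells and 171 to 3878 in tumours, the lowest in tumour 2. Stromal and endothelial sums (12 markers) were 169.6 to 214, 182 to 245 and 491 to 1832. Igfbp7 made up most of the tumour sum, with 1337, 292, 1545 and 757 in tumours 1 to 4, and 10 of the 12 were dim in tumours. B cell sums (6 markers) were 264 to 291, 238 to 257 and 21.9 to 644, and mix markers that went opposite ways. Cd79b made up most of the sorted sums, at 235 and 254 in controls and 196 to 215 in pre-transformed cells. In tumours 1 to 4 it was at 80.7, 1.3, 73.6 and 108. Ms4a1, at most 8.9 on sorted arrays, was at 198, 5, 139 and 269.7, and Cd79a and Blnk were also higher in tumours 1, 3 and 4. Erythroid sums (2 markers, dim in every group) were 0.9 to 1.1, 1.3 to 1.6 and 4.3 to 61.3, and neuronal sums (6 markers) were 19.2 to 21.7, 27.3 to 32.6 and 64.1 to 137. The 3′ over 5′ log2 ratio of β-actin was 0.24 to 0.26 in controls, 0.20 to 0.35 in pre-transformed cells and 0.54 to 1.14 in tumours, while that of Gapdh was -0.27 to -0.21, -0.34 to -0.01 and -0.53 to -0.10. The part of these differences in the tumour results below was not tested.

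Many genes that peak at division carry the letters TTTGAA close to their transcription start, the core of the cell cycle genes homology region through which a repressor and an activator complex act in turn, and often CCAAT, the letters bound by NF-Y. Both were searched on either strand (TTTGAA reads TTCAAA and CCAAT reads ATTGG on the other strand; in no kinesin did a match of one overlap the other) in RefSeq's windows from 250 bases before to 50 bases after the start, GRCm38.p6. The windows held 31 of the 37 kinesins, without Kif20a, Kif5a, Kif5b, Kif13b, Kif21b and Kif28. TTTGAA was found in 9 of 11 mitotic kinesins, in 1 of 10 transport kinesins (Kif1a) and in 2 of 10 of the remaining class, against 20.2% of all 27025 genes in the table. Within 25 bases of the start, a bound chosen after the positions were seen, it was found in 7 of the 11 mitotic kinesins, in 0 of 10 transport kinesins and in 1 of 10 of the remaining class, against 3.1% of all genes.

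CCAAT was less separated, with 7 of 11 mitotic, 3 of 10 transport and 4 of 10 remaining kinesins against 41.1% of all genes, and both motifs together stood in 6, 0 and 2 members against 7.97%. These matches are a description of letters in the window, not of binding. Some windows lie well inside the gene record, at a later annotated start. Among those with TTTGAA, this holds for Kif2c and Kif14 (3852 and 1547 bases inside), for Kif1a, the only transport match (19559 bases), and for Kif27 of the remaining class (9798 bases). Each sequence below is the 150 bases before the start on the gene's own strand, with matches in capitals. Kif11, Kif22 and Kif15 are shown because TTTGAA lies just before the start, Kif18b because it has CCAAT before the start and TTTGAA 4 bases after it, and Kif3b as a transport kinesin with CCAAT alone.
Kif11, chr19:37376232-37376381, plus strand: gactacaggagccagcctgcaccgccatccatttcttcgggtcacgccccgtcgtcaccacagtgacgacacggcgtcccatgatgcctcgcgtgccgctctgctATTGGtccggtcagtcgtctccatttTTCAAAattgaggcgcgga
Kif22, chr7:127042421-127042570, minus strand: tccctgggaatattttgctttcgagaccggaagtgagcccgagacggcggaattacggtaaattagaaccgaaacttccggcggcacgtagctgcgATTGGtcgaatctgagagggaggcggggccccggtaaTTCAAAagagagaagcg
Kif15, chr9:122950931-122951080, plus strand: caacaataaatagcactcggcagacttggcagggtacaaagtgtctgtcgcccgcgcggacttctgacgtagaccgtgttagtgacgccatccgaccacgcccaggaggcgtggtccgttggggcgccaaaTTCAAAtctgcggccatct
Kif18b, chr11:102925125-102925274, minus strand: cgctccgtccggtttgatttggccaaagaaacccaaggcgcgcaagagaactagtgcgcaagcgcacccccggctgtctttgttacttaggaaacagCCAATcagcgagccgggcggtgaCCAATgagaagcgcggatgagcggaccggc
Kif3b, chr2:153291266-153291415, plus strand: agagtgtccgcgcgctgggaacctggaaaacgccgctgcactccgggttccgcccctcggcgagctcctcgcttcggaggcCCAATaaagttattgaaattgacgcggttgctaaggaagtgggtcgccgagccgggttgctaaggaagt
In Kif11 and Kif15 the motif begins 19 bases before the start and in Kif22 17 bases before it, all 3 on the opposite strand. In Kif23, Kif18b, Kif20b and Kif4 it begins 3, 4, 8 and 20 bases after the start. Among these 7, Kif15 was below the filter on this array.

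Mitotic kinesins were compared first between control and pre-transformed DP cells, which were sorted and labelled in the same way. All 10 tested members had lower mean signals in pre-transformed cells, with a median log2 change of -0.76 against 0.02 over all 11588 genes tested, and none of the 10 turned positive with quantile normalization or median centring. In 8 of the 10 every pre-transformed array lay below every control array, an arrangement found in 15.7% of all genes tested. By limma's moderated test with Benjamini-Hochberg adjustment over all genes, 1 of the 10 was called lower, where 0.57% of all genes were called lower and 1.16% higher. Another 6 were lower at an unadjusted p under 0.05 and did not pass the adjustment. The share of all genes at that unadjusted cutoff was not counted. Such counts, here and for the classes and lists below, therefore have no background beside them. The calls over all genes split into 134 higher and 66 lower, or 78 higher and 114 lower with median centring.

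The called gene was Kif11, the motor that slides the spindle poles apart. Its signal was 294 and 395 in the controls and 164, 173 and 189 in pre-transformed cells, a log2 change of -0.96 ± 0.15 (SE; adjusted p = 0.0267, limma). Both controls lay above all 3 pre-transformed arrays. Leaving out control 1 or control 2 gave -1.18 and -0.75 with adjusted p = 0.0663 and 0.246, and leaving out pre-transformed array 1 or 3 gave adjusted p = 0.0504 and 0.0858, so the call needs each of these 4 arrays. The same adjusted p ran from 0.0223 to 0.713 over 18 alternatives, and 9 of them ended the call.

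Kif20a, which brings the chromosomal passenger complex to the central spindle, had signals of 114 and 154 in controls and 55.2, 67.6 and 81.6 in pre-transformed cells (-0.98 ± 0.21, adjusted p = 0.0672). Kif18a, which damps chromosome movements at the metaphase plate, was at 51.3 and 50.5 in controls and 23.0, 27.8 and 30.9 in pre-transformed cells, where it was dim (at least 1.16-fold lower, adjusted p = 0.0918). Kif18b, its relative on astral microtubules, stood at 109 and 138 against 75.4, 67.5 and 71.3. Neither group overlapped the other for these 3 genes, and none passed the adjusted threshold. Kif2c, a depolymerase that corrects faulty kinetochore attachments, was at 102 and 146 in controls and 65.4, 79.5 and 76.0 in pre-transformed cells. Kif23, the motor of centralspindlin, was at 324 and 385 against 262, 226 and 263. The smallest shift among bright members was that of Kif22, a motor on chromosome arms, with 416 and 402 in controls and 394, 304 and 329 in pre-transformed cells (-0.26 ± 0.13). Here 2 further probe sets of Kif22 gave changes of -0.87 and -0.92, also not called.

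**Figure D1:**
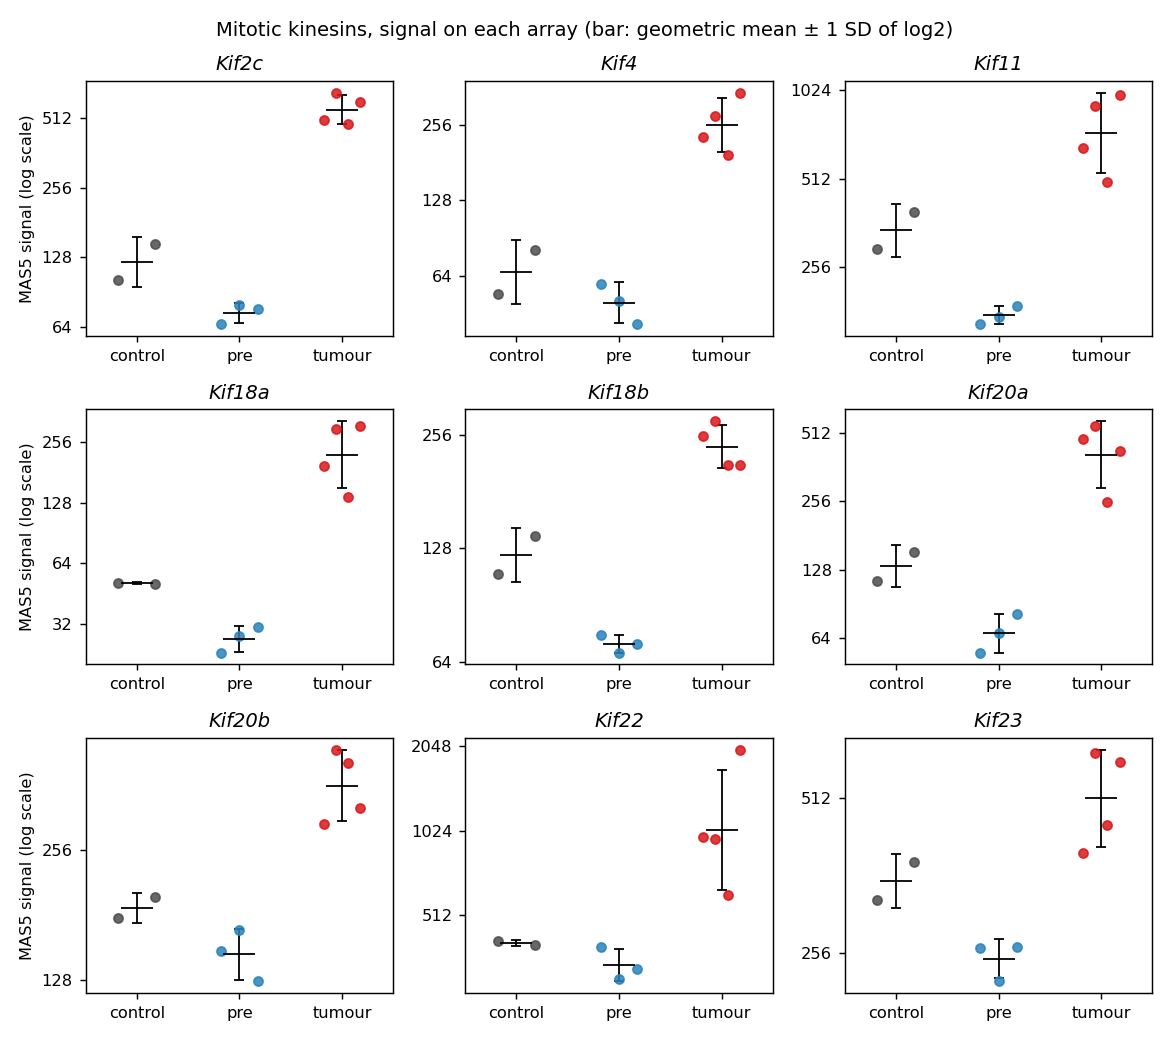
MAS5 signal (log scale, y axis) of the 9 bright mitotic kinesins on each of the 2 control, 3 pre-transformed and 4 tumour arrays (x axis); points are arrays and bars are geometric means ± 1 SD of log2. Every tumour lies above every sorted array in each panel, and pre-transformed arrays lie lowest in most of them, as for Kif11 at 164 to 189.

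In tumours the mitotic kinesins stood at the other end. All 10 tested members were called higher than in pre-transformed cells, with a median log2 change of 2.21 against -0.13 over all genes, where 23.8% of all genes were called higher and 31.1% lower. In all 10 every tumour lay above every pre-transformed array, as in 24.8% of all genes tested. The dim Kif14, a cytokinesis motor, rests on low values: signals of 14.5, 1.2, 3.0 and 15.1 in tumours and 1.0, 0.2 and 0.7 in pre-transformed cells are near the bottom of the scale, no fold was taken, and 14 of 21 alternatives ended its call, among them leaving out any 1 array other than tumour 2. Kif14 also passed the filter through tumours 1 and 4 alone, in the group where it was high. Its place in both counts of 10 was thus partly set by the filter. The 9 bright members had every tumour above every pre-transformed array. They were called higher in each of the 22 alternatives run. Over all genes the split was 2760 higher and 3602 lower, or 1852 and 4272 with median centring, under which the median over the mitotic kinesins was 1.95.

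Kif2c showed signals of 506, 662, 483 and 602 in tumours 1 to 4, against 65.4 to 79.5 in pre-transformed cells. The difference was 7.61-fold (log2 2.93 ± 0.19, adjusted p = 7.58e-06, limma). The tumours differed from each other by far less than from either sorted group. Kif18a rose to 194, 295, 137 and 307, at least 5.07-fold over a dim pre-transformed signal (adjusted p = 3.54e-05). Kif20a rose to 482, 552, 254 and 426, 6.13-fold (log2 2.62 ± 0.27). In both, tumour 3 was the lowest of the 4 and was still above every sorted array.

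Kif4, a motor of chromosome arms and the spindle midzone, was at 54.0 and 81.4 in controls, 59.5, 51.0 and 41.0 in pre-transformed cells and 228, 277, 194 and 343 in tumours. Its tumour level was 5.10-fold that of pre-transformed cells (adjusted p = 6.13e-05), and its control and pre-transformed arrays overlapped. Kif11 reached 654, 907, 497 and 988, which was 4.20-fold its pre-transformed level (log2 2.07 ± 0.24) and above both controls in every tumour. Kif18b reached 254, 278, 213 and 213 (3.33-fold). Kif22 was at 976, 959, 603 and 1995, a 3.03-fold difference with the widest spread, since tumour 4 lay well above the others.

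The smallest rises were those of Kif20b and Kif23, which act in cytokinesis. Kif20b was at 178 and 199 in controls, 149, 167 and 127 in pre-transformed cells and 295, 439.5, 409.8 and 322 in tumours, 2.46-fold over pre-transformed cells (adjusted p = 0.000307). Kif23 was at 399.5, 625, 454 and 599 in tumours, 2.04-fold over pre-transformed cells (adjusted p = 0.00114). For Kif23 the lowest tumour, at 399.5, was close to the higher control, at 385.

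Set against controls, 8 of the 10 were called higher in tumours, where 20.5% of all genes were called higher and 25.3% lower (2372 higher and 2932 lower, or 1241 and 4127 with median centring). The median log2 change was 1.45 against -0.08 over all genes. The largest was that of Kif2c, 4.57-fold (log2 2.19 ± 0.21, adjusted p = 8.99e-05). Kif23 missed the threshold (log2 0.53 ± 0.21, adjusted p = 0.0618), and so did Kif14. Without control 1, or with median centring, 4 calls were left: Kif2c, Kif4, Kif18a and Kif20a. This comparison shares its tumour arrays with the one against pre-transformed cells, so the 2 sets of calls are not independent.

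Over the 9 bright members the geometric mean signal was 143 and 175 in controls, 99.3, 100.3 and 102 in pre-transformed cells and 389.6, 501, 324 and 506 in tumours 1 to 4. The pre-transformed mice were close to each other, and the tumours were not. Tumour 3 was the lowest of the tumours for 6 of the 9 members, and tumours 2 and 4 were highest for 5 and 4. In tumour 2, with a mitotic mean of 501, the summed myeloid signal of 171 lay within the range of the sorted cells. That sum mixes markers that went opposite ways. Itgam made up 113 of it and lay above every sorted array. Lyz2, Csf1r and Tyrobp, at 3.1, 8.4 and 5.5, lay below every sorted array. The stromal and endothelial sum of tumour 2, at 491, lay above that of every sorted array. Any link between these sums and the mitotic mean was not tested.

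Other bright probe sets of the same genes were higher in tumours than in pre-transformed cells. The 12 mitotic kinesins had 25 probe sets, and of the 13 not used, 7 were bright in at least 1 group. In a fit over all probe sets, all 7 were called higher in tumours than in pre-transformed cells, and 6 of the 7 higher than in controls. Probe sets of Kif2c at 277 and 111 in tumours were bright in tumours alone. They entered this count through the group where they were high. That fit called 11612 of 21906 probe sets in either direction between tumours and pre-transformed cells, and 9537 between tumours and controls. The share called higher was not counted. Among the dim probe sets not used, one of Kif23 went the other way (log2 -0.75 against pre-transformed cells, not called, and -2.15 against controls, adjusted p = 0.0328 in the same fit). The sizes differed: Kif11 changed by log2 2.07, 2.59 and 3.84 on its 3 probe sets, and the last of them, at 36.5 in pre-transformed cells, was dim there.

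**Figure D2:**
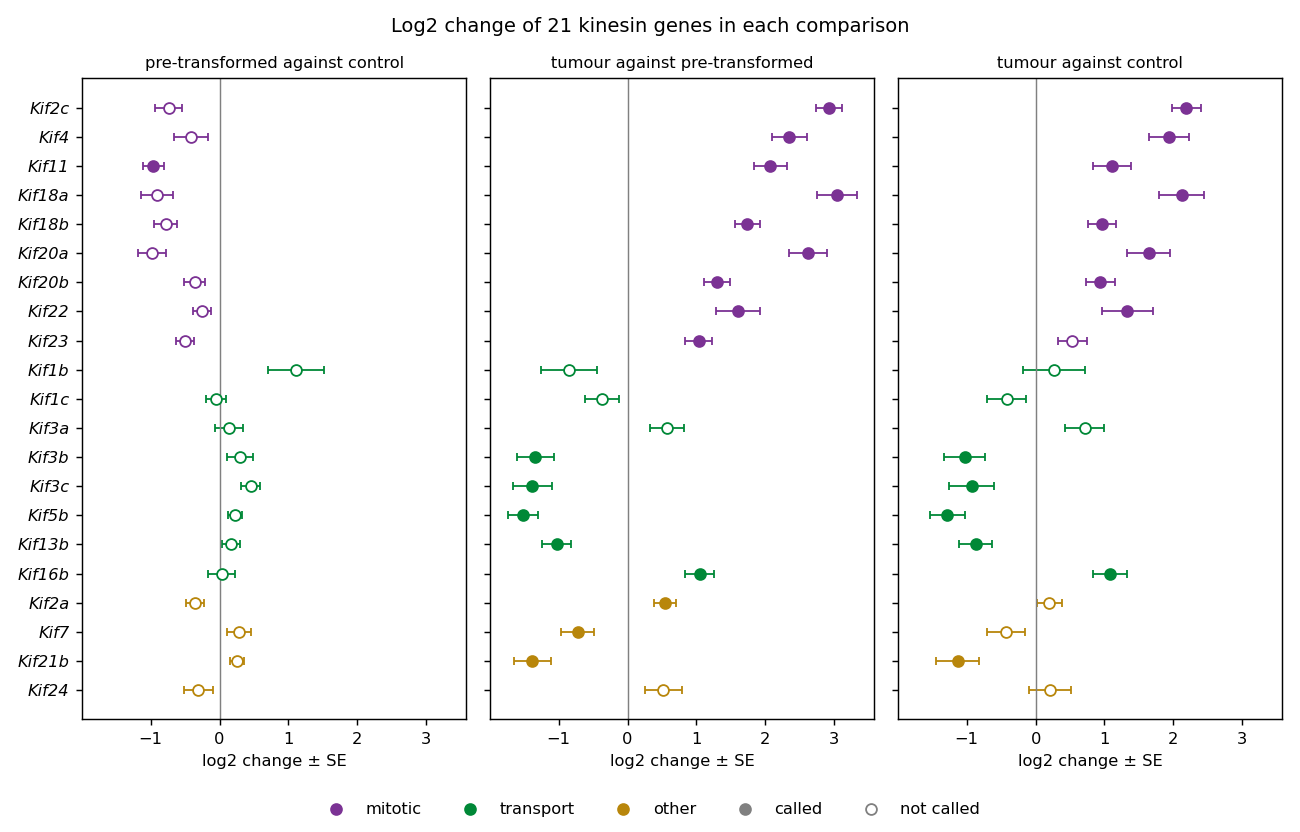
Log2 change ± SE (x axis) of the 21 bright kinesins in each of the 3 comparisons, by class; filled points passed an adjusted p of 0.05. The mitotic kinesins lie left of 0 in pre-transformed cells, with Kif11 alone called, and right of 0 in both tumour panels; the called transport kinesins lie left of 0 except Kif16b.

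No transport kinesin passed the test between control and pre-transformed cells. Of 12 tested, 0 were called by limma, while 3 lay above and 0 below controls at p under 0.05 before adjustment, and their median log2 change was 0.20 (0.07 with median centring). In 7 of the 12 every pre-transformed array lay above every control array, an arrangement found in 20.7% of all genes tested, and in 0 every one lay below. Among these 7 were Kif5c and Kif17, which were dim in every group. Kif1b, a carrier of mitochondria and synaptic vesicle precursors, was at 43.9 and 47.6 in controls, 50.5, 127 and 150.5 in pre-transformed cells and 44.0, 59.9, 84.6 and 40.0 in tumours. Pre-transformed arrays 2 and 3 were high and array 1 lay near the controls (log2 1.11 ± 0.41, adjusted p = 0.211, limma). Without pre-transformed array 1 the change was 1.60 and passed (adjusted p = 0.0125). A second Kif1b probe set showed 27.6 and 38.0 in controls and 55.7, 81.8 and 106 in pre-transformed cells (log2 1.28 ± 0.29, adjusted p = 0.0908 in a fit over all probe sets). In the same fit it was called lower in tumours than in pre-transformed cells, the only group where it was bright (log2 -1.16, adjusted p = 0.0109). Another Kif1b probe set, bright in tumours alone, was called higher in tumours than in controls there (log2 1.27, adjusted p = 0.0225). The one used was called in neither tumour comparison.

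In tumours, 4 of the 12 were called lower than in pre-transformed cells and 1 higher, against the 31.1% and 23.8% given above for all genes. The share called lower is thus near that of all genes, although the median of -0.84 lay below the -0.13 over all genes. Kif5b, the heavy chain of the widely expressed conventional kinesin, had the highest signal: 1169 and 1248 in controls, 1414, 1350 and 1502 in pre-transformed cells and 377, 773, 509.5 and 408 in tumours. Its tumour level was 2.86-fold lower than in pre-transformed cells (log2 -1.52 ± 0.22, adjusted p = 0.000333, limma) and 2.43-fold lower than in controls (adjusted p = 0.00276). All 4 tumours were below all 5 sorted arrays, and the call held in each of 22 alternatives in both comparisons.

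Kif5b also had the most bright probe sets, and they did not move together. Of 6, 4 were called lower in tumours, by log2 -1.52, -0.93, -1.94 and -3.19, the last from 490.3 in pre-transformed cells to 53.9 in tumours. Another was called higher, from 72.0 to 227 (log2 1.66 ± 0.26, adjusted p = 0.000557 in the fit over all probe sets), and the remaining 1 was not called (-0.68). On the probe set that rose the signals were 65.4 and 58.7 in controls, 63.7, 106 and 55.3 in pre-transformed cells and 259.8, 260.5, 171 and 229.7 in tumours. The direction for Kif5b in tumours thus differed between its probe sets.

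**Figure D3:**
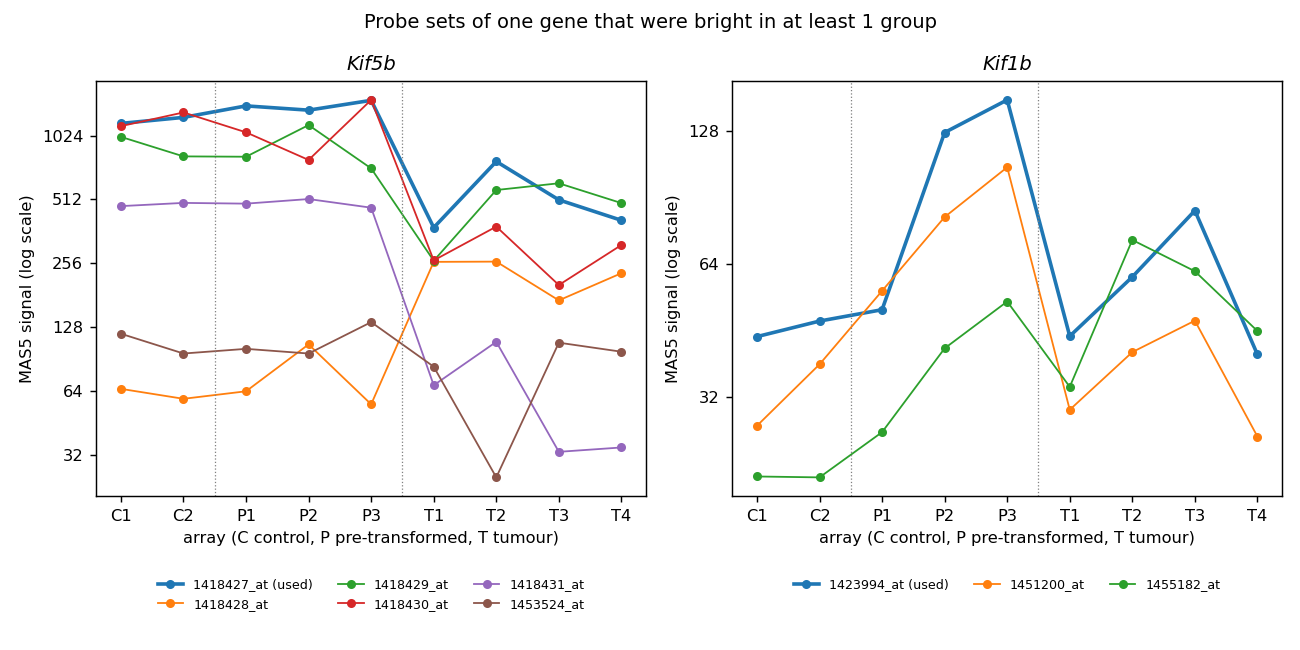
MAS5 signal (log scale, y axis) on each array (x axis) for every probe set of Kif5b and of Kif1b that was bright in at least 1 group; each line is a probe set and the thick line is the one used. For Kif5b, the purple line drops from a mean of 490.3 in pre-transformed cells to 53.9 in tumours while the orange line rises from 72.0 to 227.

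The kinesin-2 motor pairs Kif3a with Kif3b or Kif3c and serves cilia and vesicle transport. Kif3b was at 84.3 and 69.1 in controls, 86.2, 84.4 and 115 in pre-transformed cells and 28.5, 30.1, 49.5 and 45.5 in tumours (2.53-fold lower than pre-transformed, adjusted p = 0.00204). Kif3c was at 125 and 121, then 151, 174 and 180.3, then 41.8, 62.6, 109 and 61.1 (2.60-fold lower, adjusted p = 0.00267). For both genes the tumours lay below all sorted arrays. Kif3a was at 51.3 and 49.3 in controls, 62.3, 59.5 and 45.7 in pre-transformed cells and 65, 119, 77.1 and 76.8 in tumours, and was not called (log2 0.57 ± 0.25, adjusted p = 0.0751). A second bright probe set of Kif3b gave -0.24, not called, and one of Kif3a gave -0.31, opposite in sign to the one used. A dim probe set of Kif3b was called higher in tumours than in controls (log2 0.97, adjusted p = 0.0258 in the fit over all probe sets). Leaving out probe sets with an _s or _x suffix, among them the one used for Kif3b, ended its call in both tumour comparisons. With each gene's probe sets averaged, Kif3b and Kif3c were no longer called, and 3 transport kinesins were.

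Kif13b, which binds the scaffold protein Dlg in T cells, was at 111 and 112 in controls, 128, 124 and 125 in pre-transformed cells and 45.6, 58.5, 72.7 and 72.8 in tumours. That is 2.05-fold lower than in pre-transformed cells (log2 -1.03 ± 0.21, adjusted p = 0.00223), with narrow sorted groups that the tumours did not reach. Kif16b, a carrier of early endosomes, went the other way: 62.8 and 70.2 in controls, 67.2, 81.0 and 57.5 in pre-transformed cells, and 158, 146, 107 and 157 in tumours. It was 2.07-fold higher (log2 1.05 ± 0.21, adjusted p = 0.00229), and every tumour was above every sorted array. Kif1c, a vesicle motor, was at 89.1 and 101 in controls, 97.1, 85.2 and 93.3 in pre-transformed cells and 60.6, 54.5, 108 and 70.4 in tumours, where tumour 3 lay above all sorted arrays and the other tumours below them (not called).

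Against controls, 4 transport kinesins were called lower in tumours (Kif3b, Kif3c, Kif5b and Kif13b) and 2 higher, Kif16b and the dim Kif5c (3.6 and 3.4 in controls, 10.3 to 26.8 in tumours). These counts of 12 tested are near the 25.3% lower and 20.5% higher over all genes. Of these 6, only Kif5b was called without control 1, and 2 were called without control 2. Fitting tumours and controls alone left 3, and the call of Kif3c ended in 13 of 22 alternatives. The geometric mean over the 8 bright transport kinesins was 107 and 109 in controls, 122, 138 and 139.5 in pre-transformed cells and 69.8, 91.3, 105 and 85.3 in tumours. Tumour 3 was the highest tumour for 4 of the 8 and tumour 1 the lowest for 5, so the tumour with the lowest mitotic mean had the highest transport mean.

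**Figure D4:**
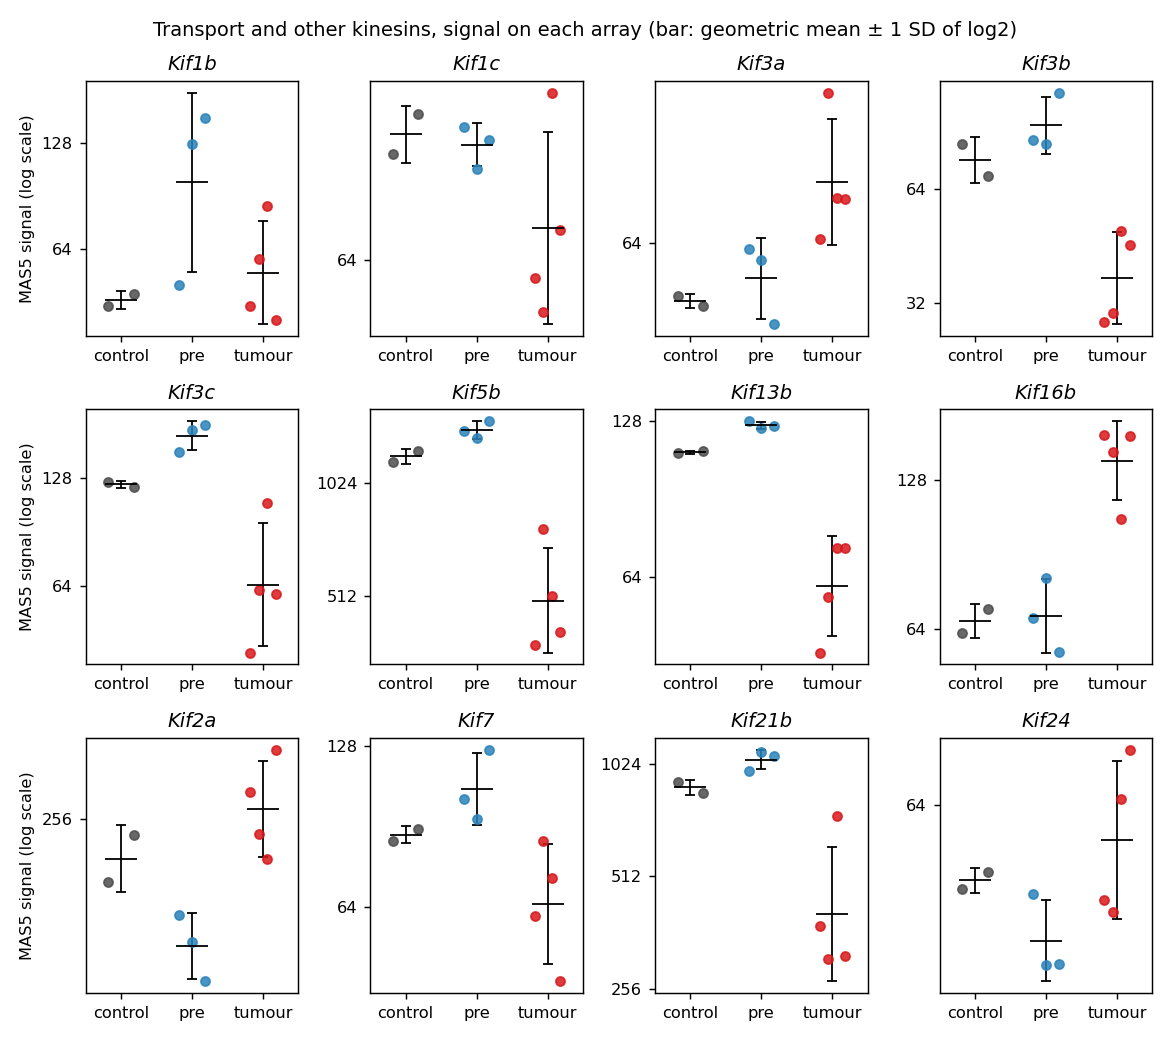
MAS5 signal (log scale, y axis) of the 8 bright transport kinesins and the 4 bright kinesins of the remaining class on each array, by group (x axis); points are arrays and bars are geometric means ± 1 SD of log2. Kif5b, Kif13b and Kif21b are lower in tumours, Kif16b is higher, and Kif1b is spread among pre-transformed arrays from 50.5 to 150.5.

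Of the remaining class, 5 of 12 were tested and 0 were called between control and pre-transformed cells by limma, while 1 lay above and 1 below controls at p under 0.05 before adjustment. Kif21b, which limits microtubule growth in neurons and T cells, was at 917 and 858 in controls, 982, 1103 and 1077 in pre-transformed cells and 378, 308, 744 and 313 in tumours. Tumour 3 stood apart from the other tumours and was still below every sorted array. The tumour level was 2.59-fold lower than in pre-transformed cells (log2 -1.38 ± 0.27, adjusted p = 0.00208) and 2.19-fold lower than in controls (adjusted p = 0.0147). Leaving out control 1 or control 2 ended the second of these calls (adjusted p = 0.0984 and 0.0697). Averaging it with its dim second probe set gave 0.06 and 0.30.

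Kif2a, a depolymerase that is related to Kif2c and is not restricted to division, was at 215 and 245 in controls, 196, 182 and 163 in pre-transformed cells and 276, 246, 229 and 311 in tumours. It was 1.47-fold higher in tumours than in pre-transformed cells (adjusted p = 0.0157), and its tumour and control arrays overlapped. Without pre-transformed array 3 it was not called (log2 0.48, adjusted p = 0.074), nor with median centring (log2 0.30, adjusted p = 0.246). Of 3 further bright Kif2a probe sets, 2 were called higher in tumours than in controls (log2 0.86 and 1.81, adjusted p = 0.0107 and 0.00727 in the fit over all probe sets) and the other was not (-0.09). The one that changed by 1.81 was bright in tumours alone. Kif7, a regulator of Hedgehog signalling at the cilium tip, was at 102, 93.5 and 126 in pre-transformed cells and 61.5, 84.9, 72.3 and 46.4 in tumours, 1.64-fold lower (adjusted p = 0.0275); without pre-transformed array 1 or 3 the adjusted p was 0.0645 and 0.117. Kif24, which acts at centrioles, was at 45.4, 43.5, 65.6 and 78.3 in tumours against 46.5, 36.0 and 36.1 in pre-transformed cells and was not called. Kif9 was called higher in tumours than in controls while dim in both (1.1 to 2.0 and 3.0 to 19.8), and 11 of 21 alternatives ended that call, 6 of them by leaving out 1 array.

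Kinesins whose symbols the rule does not take showed both directions. Cenpe, which carries chromosomes to the metaphase plate, was at 82.6 in pre-transformed cells and 466 in tumours, 5.65-fold higher (adjusted p = 2.21e-05). Kifc1, a mitotic motor that walks in the opposite direction, went from 138 to 90.2, 1.53-fold lower (adjusted p = 0.0101), while its close copy Kifc5b was called higher from a dim level (at least 1.47-fold, adjusted p = 0.0213). Probe sets of such near-identical genes may read each other's transcripts, so these values are uncertain. Kifc2 fell to a dim tumour level (at least 1.73-fold lower), and 2 of the 6 listed were not called.

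Proteins that work with the mitotic motors moved in the same directions by count. Of 19 such genes, all tested, 4 were called lower in pre-transformed cells than in controls (Birc5, Cdca8, Tpx2 and Spag5) and 0 higher, with a median log2 change of -0.72, where 0.57% of all genes were called lower. In tumours 16 were called higher than in pre-transformed cells and 3 lower, with a median of 1.99, where 23.8% of all genes were called higher and 31.1% lower. Tpx2, which targets Aurora A and Kif15 to the spindle, went from 106 to 698 (6.61-fold, adjusted p = 1.10e-05). Cdca8 and Birc5 of the passenger complex went from 358 to 1752 and from 344 to 1761 (adjusted p = 1.49e-05 and 1.91e-05). Racgap1, the partner of Kif23 in centralspindlin, went from 128 to 813 (6.35-fold, adjusted p = 1.57e-05), while Kif23 itself differed 2.04-fold.

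The 3 partners called lower in tumours were Cit, a cytokinesis kinase that binds Kif14 (126 to 55.3), Numa1 at the spindle poles (743 to 442) and Mapre1, a microtubule plus-end protein with roles outside division (1874 to 1525). Against controls 14 of the 19 were higher in tumours and 2 lower. All 6 measured division markers (Mki67, Top2a, Pcna, Ccna2, Ccnb2 and Cdk1) were called higher in tumours than in pre-transformed cells and than in controls, and Ccna2 and Ccnb2 were called lower in pre-transformed cells than in controls. Mki67 was at 1345 in controls, 819.9 in pre-transformed cells and 3142 in tumours. In whole-sample RNA, more dividing cells and more of these transcripts per cell cannot be told apart.

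Adaptors and light chains that tie transport kinesins to cargo were in most cases lower in tumours. Of 16 tested (17 on the array), 0 were called between control and pre-transformed cells by limma, while 2 lay above and 1 below controls at p under 0.05 before adjustment. In tumours 12 of the 16 were called lower than in pre-transformed cells and 0 higher, with a median of -1.11, where 31.1% of all genes were called lower and 23.8% higher. Against controls 11 of the 16 were called lower, where 25.3% of all genes were. Klc3, a light chain of conventional kinesin, was at 478 in controls, 323 in pre-transformed cells and a dim 8.30 in tumours (at least 8.91-fold lower than pre-transformed, adjusted p = 3.45e-05). Kidins220, a membrane scaffold that travels on kinesin-1, went from 1554 to 461 (3.37-fold, adjusted p = 2.37e-05). Klc1, the light chain partner of Kif5b, went from 256 to 104 (2.45-fold, adjusted p = 0.000172), and Mapk8ip3, which links kinesin-1 to vesicles, went from 290.1 to 43.7 (6.63-fold, adjusted p = 0.000294).

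Dynein and dynactin, the motor of the opposite direction and its activator, were mixed. Of 25 tested genes, 0 were called between control and pre-transformed cells by limma, while 1 lay above and 1 below controls at p under 0.05 before adjustment. Between tumours and pre-transformed cells 12 of the 25 were called lower and 3 higher, with a median of -0.50, where 31.1% of all genes were called lower and 23.8% higher. Hook1, an adaptor of dynein, went from 188 to a dim 7.89 (at least 5.19-fold lower, adjusted p = 2.79e-05). Dctn2 of dynactin went from 914 to 328 (2.78-fold, adjusted p = 0.000108), and Ndel1, a dynein regulator, from 643 to 320 (adjusted p = 0.000181). Dync1li1, Dctn6 and Nde1 were the 3 called higher.

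**Figure D5:**
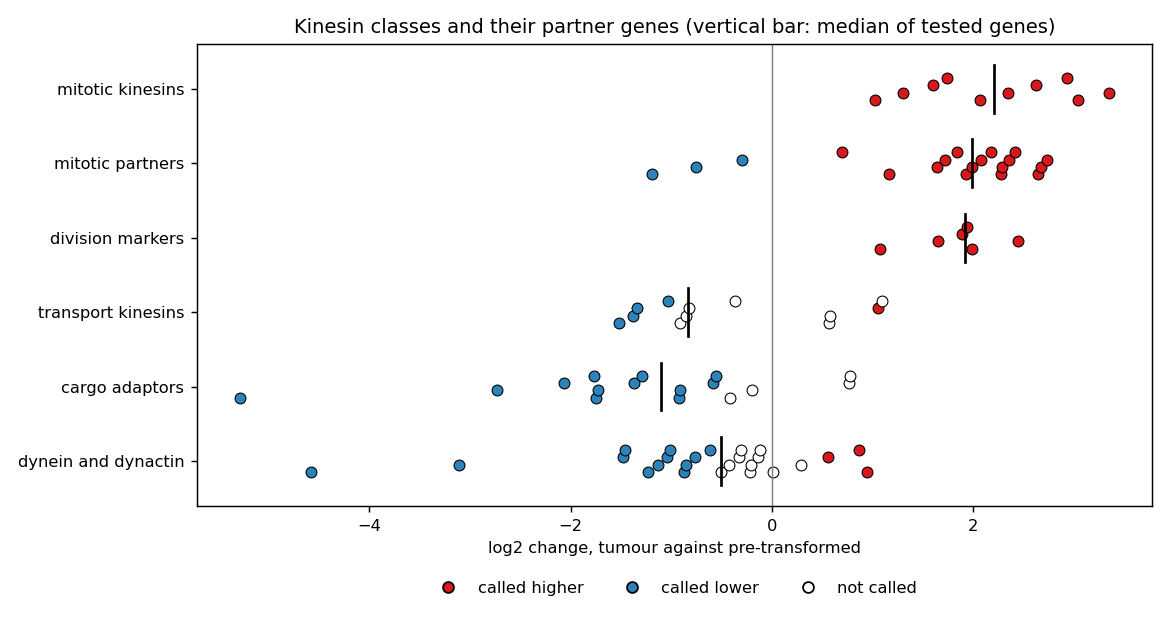
Log2 change between tumour and pre-transformed arrays (x axis) for each tested gene of 6 lists (y axis), with called genes filled and the list median as a vertical bar. Mitotic kinesins, their partners and division markers have medians of 2.21, 1.99 and 1.92; transport kinesins, cargo adaptors, and dynein and dynactin have medians of -0.84, -1.11 and -0.50.

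Set side by side, the mitotic and transport classes had medians of opposite sign in both steps, with overlapping members, and the difference between the classes was not tested. From control to pre-transformed cells the medians were -0.76 and 0.20, with members from -1.79 (the dim Kif14) to -0.26 and from -0.64 (the dim Kif13a) to 1.11. From pre-transformed cells to tumours they were 2.21 and -0.84, with members from 1.03 (Kif23) to 3.35 (the dim Kif14) and from -1.52 to 1.09 (the dim Kif5c). Bright mitotic members alone ran from -0.98 to -0.26 in the first step and from 1.03 to 3.04 in the second. The transport median lies between members that were not called, Kif1b at -0.85 and the dim Kif17 at -0.82. No bright mitotic kinesin was called lower in tumours and, among bright transport kinesins, Kif16b alone was called higher. Both comparisons use the pre-transformed arrays, so a low or high value there moves both in opposite directions. Against controls, which do not share that term, the medians were 1.45 and -0.41.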

How the data were processed

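RNA of 9 mouse thymocyte samples was measured on Affymetrix arrays, 1 per sample, and probe sets were named from the platform annotation. MAS5 made the signal intensity in the table deposited by the authors, per the submitters' processing notes; the values are linear with a trimmed mean of 100 on each array. The sources used here do not give the MAS5 version. Of 45101 probe sets, 64 controls were left out; 34945 named 1 gene, 932 several and 9160 none. The 218 zeros were set to 0.1 before log2. Each gene kept its single-symbol probe set of highest mean log2 signal, and genes at or above the array median on 2 or more arrays were tested.

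Groups follow the labels. Control and pre-transformed arrays were compared in a fit of those 5 arrays, and tumours in a fit of all 9 (limma 3.58.1 in R 4.3.3, lmFit and eBayes with a trend). Calls were made at a Benjamini-Hochberg adjusted p of 0.05 over 11588 genes. The fits were tested first on simulated data, in which a gene had the same spread in every group. That trial does not cover groups of unequal spread. SE is the moderated standard error of the log2 change. Where 1 group was dim, the fold is a bound against that group's 65th percentile. Precision is limited by 2 to 4 arrays a group. A replicate number stands for another mouse in every group (correlation of same-numbered deviations -0.019 to 0.087), so no block was used. Promoter windows are RefSeq's, on GRCm38.p6. Members, classes, gene lists and tests were chosen with earlier results of these data known. Named were all mitotic members, other members called at least once, and up to 4 genes per partner list by smallest adjusted p; Kif1b, Kif1c, Kif3a, Kif24, the remaining genes of other kinesins, the partners called lower, Mki67 and the promoter motifs were named after values were seen. Alternatives covered the filter, scaling, offset, choice of probe set, trend, arrays fitted, a common floor, the replicate block and each array left out.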

Additional observations from a re-analysis of the deposited data

How the results depend on the processing

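Counts of called kinesins moved as follows. For mitotic kinesins between pre-transformed and control cells, 1 was called in the reported fit, 0 without the filter, without the trend or with all 9 arrays, 2 with median centring and 2 with the replicate block, and 0 to 1 with single arrays left out. The count was also 1 with probe sets averaged and with the common floor, but the gene called was Kif22 and Kif18a in place of Kif11. Transport kinesins there stayed at 0, and ranged from 0 to 1 with arrays left out. Between tumours and pre-transformed cells 9 to 10 mitotic and 5 to 7 transport kinesins were called with arrays left out, and 3 transport kinesins with probe sets averaged. Between tumours and controls the mitotic count was 8, 4 with median centring, and 4 to 9 with arrays left out; the transport count was 6, 2 with probe sets averaged, 3 with tumours and controls alone, and 1 to 7 with arrays left out. The replicate block changed no other count by over 1.5 times.

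Member values were followed for 49 results: tested mitotic members, other members in comparisons where they were called, and Kif1b. Of 1028 such values over the alternatives, 927 kept direction and side of the threshold, 85 lost it, 11 gained it and 5 turned sign. Calls gained by other members are not in these counts. One was Kif3a, called higher in tumours than in pre-transformed cells with quantile normalization. Averaged probe sets turned Kif20b to 0.49 (pre-transformed against control), Kif21b to 0.06 and 0.30 (tumour against pre-transformed and control) and Kif23 to -0.28 (tumour against control), each average taking in dim probe sets; median centring turned Kif1b to -0.13 (tumour against control). Over all genes, 200 were called between pre-transformed and control cells, against 1 without the trend, 6 with all 9 arrays, 18 with the common floor, 74 without the filter and 18 to 294 with arrays left out; between tumours and controls 5304 were called, against 2589 without control 1 and 3164 without control 2. Signals near the bacterial control probe sets, whose maxima were 2.4 to 5.0 on sorted arrays and 7.8 to 13.9 on tumours, carry no usable fold. Apart from what is stated, the cause was not tested.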
